A study of Mus musculus with 2 samples.

Results

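The 10 microRNA (miRNA) genes described here lie at the proximal end of the miRNA clusters of the imprinted Dlk1-Dio3 region on mouse chromosome 12. They are Mir673, Mir493, Mir337, Mir540, Mir665, Mir431, Mir433, Mir127, Mir434 and Mir370. They were chosen by name and place, not by level, though with earlier results of these data known. All 10 were found among the 1973 miRNA genes measured. Small RNA was sequenced from lungs of newborn mice of the strain B6NCrl at an age of 0 days, with no treatment or engineered allele given in the labels. There is 1 group of 2 libraries, each from 2 lungs pooled from a single pup: replicate 1 is pup 1 and replicate 2 is pup 3 of pregnancy 1. The labels give both pups the same donor record, and sex was not collected. Levels are in reads per 1000000 own-strand reads on miRNA genes (CPM) unless another basis is named. With no second tissue, age or genotype, the design allows a description of the levels and a comparison of the replicates, which rests on 2 animals.

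In the Dlk1-Dio3 region the parental chromosomes are used differently. The protein-coding genes Dlk1, Rtl1 and Dio3 are expressed from the paternal chromosome, while the noncoding RNAs Meg3, antisense Rtl1 (Rtl1as), Rian and Mirg are expressed from the maternal one. Most miRNAs of the region are cut from these maternal RNAs, and it is known for high activity in the embryo, the placenta and the brain. Those cut from Rtl1as are fully complementary to the paternal Rtl1 mRNA, a retrotransposon-derived gene needed for the fetal vessels of the mouse placenta, and in mice they guide its cleavage.

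On the assembly GRCm38 (mm10) all 10 precursors lie on the plus strand, within 46347 bases. By the GENCODE M21 annotation 4 of them, Mir431, Mir433, Mir127 and Mir434, lie wholly within the coding sequence of Rtl1, which is read from the minus strand. Another 5, Mir673, Mir493, Mir337, Mir540 and Mir665, overlap no gene other than miRNA genes and lie between Meg3 and Rtl1, with Mir673 beginning 263 bases past the annotated end of Meg3. Mir370 lies apart, in an intron of Rian, 23658 bases beyond Mir434 and outside the window given with the rule. It was kept because the rule names it.

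The mature sequences that matter most here are those of the 4 precursors in Rtl1, from RefSeq (GRCm38.p6), because each can pair with the Rtl1 mRNA over its whole length. They are given 5′ to 3′ with the seed, bases 2 to 8, in capitals.
miR-127-5p: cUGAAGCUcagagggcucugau
miR-127-3p: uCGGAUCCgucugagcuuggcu
miR-431-5p: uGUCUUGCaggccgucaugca
miR-431-3p: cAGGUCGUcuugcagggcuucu
miR-433-5p: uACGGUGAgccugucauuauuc
miR-433-3p: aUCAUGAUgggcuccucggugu
miR-434-5p: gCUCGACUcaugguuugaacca
miR-434-3p: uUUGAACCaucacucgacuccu

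The reverse complement of each of these 8 mature sequences was found 1 time in the 6358-base Rtl1 transcript of GENCODE M21, and none of the other 12 mature sequences of the 10 genes was found there. All 8 sites lie in the coding sequence, which begins after 147 bases of leader. The sites for Mir127, the most abundant of the genes, are shown as the sense strand of the transcript. They span positions 2642 to 2663 for miR-127-3p and 2676 to 2697 for miR-127-5p.
Rtl1 site of miR-127-3p: agccaagcucagacggauccga
Rtl1 site of miR-127-5p: aucagagcccucugagcuucag

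The order of the sites along the Rtl1 mRNA is the reverse of the order on the chromosome. Mir434 pairs nearest the start of the transcript, with sites beginning at positions 965 and 1002, and Mir431 nearest the end, at 5028 and 5072. The 10 genes gave 20 mature sequences in the RefSeq table with 20 different seeds, so no 2 of them share a seed. Outside the 10 genes, 3 of the 20 seeds are shared, whereas 27.9% of all mature names in the table share their seed with another name. Of these 3 pairs, 1 stays within the region, since miR-370-5p has the seed of miR-1193-3p from the distal cluster.
miR-370-5p: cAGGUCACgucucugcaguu
miR-1193-3p: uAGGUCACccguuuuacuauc

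Mir1193 was detected with 3512 and 5201 reads in replicates 1 and 2. The seed of miR-673-5p is that of miR-6985-3p, whose gene had 3 reads in each replicate, and the seed of miR-540-3p is that of miR-6915-5p, which was not analysed here.

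Repeated letters within a precursor were found in some of the genes. A stretch of 10 bases occurs more than 1 time in the hairpins of 3 of the 10 genes, Mir434, Mir431 and Mir540, against 4.08% of 1005 mouse hairpins in the RefSeq table, and this difference was not tested. The other 7 hairpins have no such repeat. The hairpins with a repeat are shown because in each of them a copy of the repeat reaches into a mature arm. Not every copy does, as in Mir434 and Mir540. Bases of repeated 10-base stretches are in capitals.
Mir434 (chr12:109594506-109594599, plus strand): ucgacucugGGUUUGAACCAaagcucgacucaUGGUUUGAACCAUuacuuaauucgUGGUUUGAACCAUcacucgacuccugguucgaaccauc
Mir431 (chr12:109590447-109590537, plus strand): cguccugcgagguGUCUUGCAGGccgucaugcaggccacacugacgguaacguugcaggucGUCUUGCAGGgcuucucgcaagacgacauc
Mir540 (chr12:109586080-109586146, plus strand): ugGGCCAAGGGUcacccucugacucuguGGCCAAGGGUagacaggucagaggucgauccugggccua

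The longest repeat in Mir434 is 13 bases, and 3 copies of a 10-base stretch occur there. For 3 of the 20 mature sequences, miR-431-5p, miR-434-5p and miR-434-3p, the seed also occurs inside the other arm of the same precursor. Counted by gene, these are Mir431 and Mir434. In the RefSeq table, also counted by gene, this was so for an arm of 1.03% of the 677 genes with 2 mature names. This difference was not tested. The tables count both arms of a precursor together, so the level of a gene does not say which arm was present. The median GC content was 56.1% over the 10 hairpins and 51.7% over all hairpins of the table.

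All 10 genes were detected, meaning at least 10 reads in each library, against 15.6% of all 1973 rows. Together they took 1.19% of the miRNA reads in replicate 1 (exact Clopper-Pearson 95% interval 1.18% to 1.20%) and 1.13% in replicate 2 (1.12% to 1.14%). Their summed level was 11930.5 and 11289.5 CPM, or 11610 ± 453 CPM (SD, n = 2). Most of it came from Mir127, and the other 9 genes summed to 4614 and 5131 CPM in replicates 1 and 2. The median level of the 10 genes was 270.7 CPM in replicate 1 and 268.3 CPM in replicate 2, beside a median of 141.5 and 141.2 CPM over the 308 detected genes and of 0 over all rows. By mean level 5 of the 10 stood above the median of the detected genes. No stretch of 20 bases of the 10 hairpins occurs in any other gene of the tables that matched GENCODE M21.

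Markers of several cell types that the lung contains were abundant in both replicates. Reads on Mir126a, the endothelial marker, stood at 160640 and 160658 CPM, and the summed level of 5 epithelial genes of the miR-200 family at 30789 and 30324 CPM. Smooth muscle and mesenchyme markers summed to 71724 and 75552 CPM, and those of multiciliated cells to 22052 and 22211 CPM. Erythroid markers summed to 1292 and 1131 CPM. The myeloid marker stood at 1232 and 1381 CPM and the liver marker at 45.9 and 53.1 CPM. Of 6 rows for markers of the nervous system, where the region is known to be active, 1 was detected and 4 were at 0 in both replicates. Their sum was 5.29 and 4.05 CPM. All 6 share a stretch of 20 bases with another gene of the tables, and reads mapped to several places are in no gene row, so these counts can be too low. Mir137, a neuronal miRNA outside the list and named after its values were seen, shares no such stretch and had 231 and 303 reads, or 50.96 and 55.8 CPM. The part of neural cells in the levels of the 10 genes was not tested. Heart and skeletal muscle markers summed to 415.6 and 455.2 CPM. Of these, Mir206 had 9.04 and 16.96 CPM and Mir499 had 8.16 and 10.5 CPM. The rest lay on Mir208a and Mir208b, and the part of muscle in the levels given here was not tested. The libraries held 4532902 and 5426081 reads on miRNA genes. In whole tissue, fewer cells of a type and less RNA per cell cannot be told apart.

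The miRNAs antisense to Rtl1 made up most of the reads. Summed over the 4 genes, replicate 1 had 10778 CPM and replicate 2 had 10049 CPM, which is 90.3% and 89.0% of the reads on the 10 genes. The 5 genes between Meg3 and Rtl1 summed to 1084.5 and 1171 CPM. The log2 ratio of the 4 to the 5 was 3.31 and 3.10 in replicates 1 and 2, a mean of 3.21 ± 0.15 (SD, n = 2) and a ratio of 9.23. It did not rest on Mir127 alone, since the ratio of Mir431, Mir433 and Mir434 to the same 5 genes was 1.67 and 1.73 on the log2 scale. No p is given for ratios between genes, because with 2 libraries a two-sided exact sign-flip test cannot go below 0.5.

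Mir127 (ENSMUSG00000070076.1, chr12:109592846-109592915) had 33164 reads in replicate 1 and 33417 in replicate 2, or 7316 and 6159 CPM. In rat fetal lung its excess in culture is known to impair airway branching, and its level here placed it at rank 24 of all miRNA genes in replicate 1 and rank 25 in replicate 2. Its mean was 6737 ± 819 CPM (SD, n = 2). Nearest to it in mean level over the whole table were Mir411 of the distal cluster just above, at 6733 and 7036 CPM, and the epithelial Mir200b just below, at 6822 and 5913 CPM. The values of Mir127 and each of these neighbours overlapped between replicates. Mir127 took 61.3% of the reads on the 10 genes in replicate 1 and 54.6% in replicate 2.

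Mir431 (ENSMUSG00000070080.1, chr12:109590447-109590537) had 8747 and 11336 reads, or 1929.7 and 2089 CPM in replicates 1 and 2. This miRNA is known from mouse muscle stem cells, where it targets Pax7. Its neighbours in the whole table were Mir487b of the distal cluster at 1829.95 and 2229 CPM and Mir455 at 1618 and 1958 CPM, and all 3 overlapped in their ranges. Mir434 (ENSMUSG00000070133.1, chr12:109594506-109594599) had 5044 and 7595 reads, or 1113 and 1399.7 CPM. It stood between Mir872 at 1209.6 and 1356 CPM and Mir203, a miRNA of stratified epithelium, at 1159.7 and 1294 CPM. These 3 genes, Mir127, Mir431 and Mir434, reached 1000 CPM in both replicates, as did 3.95% of all rows.

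Mir433 (ENSMUSG00000070072.1, chr12:109591715-109591838) was the lowest of the genes antisense to Rtl1, with 1899 and 2181 reads, or 418.9 and 401.9 CPM. It lies between Mir431 and Mir127 on the chromosome, which both stood above it in each replicate. Levels therefore did not run in 1 direction along the 4153 bases from Mir431 to Mir434. A small RNA read covers a whole mature miRNA, so these counts do not grow with precursor length and the genes were compared without a length correction. How well each miRNA was taken into the libraries was not measured. Orders and ratios between genes therefore compare reads and not molecules, and the same order in both replicates does not change that.

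Of the genes between Meg3 and Rtl1, Mir337 (ENSMUSG00000065526.3, chr12:109585789-109585885) was the highest, with 3697 and 4910 reads, or 815.6 and 904.9 CPM. Its mature sequences are shown because it is the member outside Rtl1 nearest in level to the antisense genes.
miR-337-5p: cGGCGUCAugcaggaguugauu
miR-337-3p: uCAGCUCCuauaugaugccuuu

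Mir337 exceeded Mir433 in both replicates. Mir540 (chr12:109586080-109586146), the next gene beyond it, had 555 and 731 reads, or 122.4 and 134.7 CPM. Mir665 (chr12:109586314-109586407) had 285 and 317 reads, or 62.9 and 58.4 CPM. Mir673 (chr12:109571990-109572080), the member closest to Meg3, had 284 and 272 reads, or 62.7 and 50.1 CPM. Mir493 (chr12:109580233-109580315), known as a suppressor of metastasis in human cancer cells, was the lowest of all 10, with 95 and 125 reads, or 20.96 and 23.04 CPM. Without the highest gene of each group, the antisense genes still exceeded those between Meg3 and Rtl1 by 3.69 and 3.87 on the log2 scale. Mir370 (chr12:109618258-109618336), in Rian, had 310 and 374 reads, or 68.4 and 68.9 CPM. With library totals this was the closest match between replicates in the set, at a log2 ratio of -0.01 (95% interval -0.23 to 0.21). With the TMM scaling described below Mir433 was closer, at -0.0097 against -0.081 for Mir370.

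**Figure D1:**
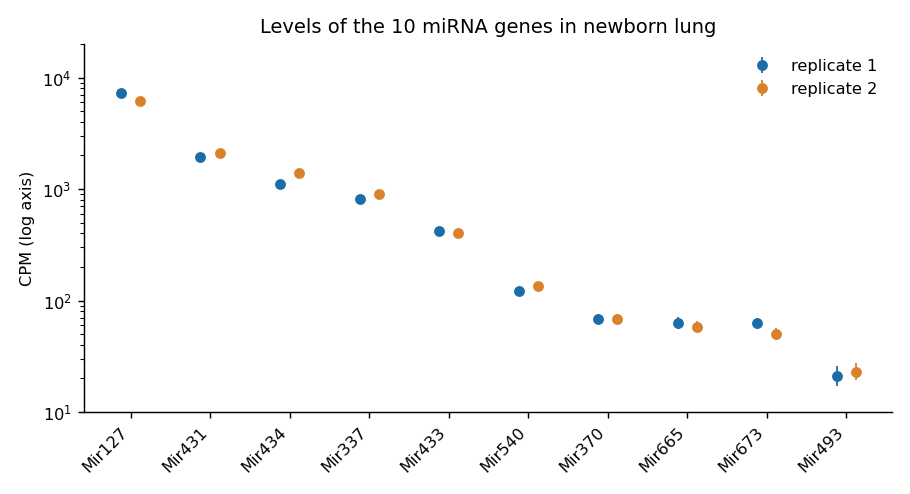
Levels of the 10 genes in CPM on a log axis, ordered by mean, with replicate 1 left of replicate 2 for each gene; bars are exact 95% intervals for counting error and are mostly smaller than the points. Mir127 stands at 7316 and 6159 CPM and Mir493 at 20.96 and 23.04 CPM, with the same order of genes in both replicates.

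The order of the genes was the same in both replicates: Mir127, Mir431, Mir434, Mir337, Mir433, Mir540, Mir370, Mir665, Mir673 and Mir493, from high to low. In all 45 pairs of genes the higher was the same in each library. Of the 9 neighbouring pairs in this order, 8 did not overlap, with both values of the higher gene above both of the lower. The exception was Mir665 and Mir673, which differed by 0.01 and 0.22 on the log2 scale in replicates 1 and 2, with a mean of 0.11 ± 0.15 (SD, n = 2), less than the spread between replicates. Mir370 exceeded Mir665 by 0.12 and 0.24. The widest steps were Mir127 over Mir431, at 1.74 ± 0.26 or a ratio of 3.34, and Mir433 over Mir540, at 1.68 ± 0.14 or a ratio of 3.20. From Mir127 to Mir493 the levels spanned a ratio of 349 in replicate 1 and 267 in replicate 2.

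The other miRNA genes between Mir673 and Mir370 numbered 7, and 2 of them were detected. Mir341, in the stretch of Rian, had 899 and 1185 reads, or 198.3 and 218.4 CPM in replicates 1 and 2. Mir3071, which overlaps Mir136 within Rtl1 on the other strand, had 2087 and 2506 reads on the strand that the files' annotation gives it, or 460.4 and 461.8 CPM. GENCODE M21 puts Mir3071 on the minus strand and Mir136 on the plus strand. Mir136 was not analysed here, and the strand of Mir3071 in the annotation used for counting was not checked, so these reads are given for the row and not for either miRNA.

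The remaining 5 were near or at 0. Mir432, which also lies within Rtl1, had 0 reads in both replicates, where 3 reads would be 0.662 and 0.553 CPM in replicates 1 and 2, the limit that a count of 0 allows. Mir1188 had 6 and 12 reads, Mir3070a had 4 and 6, Mir3070b had 0 and 1, and Gm23912 had 1 and 0. Mir3070a and Mir3070b share stretches of 20 bases, so their counts can be too low too, because reads mapped to several places are left out. Upstream of Mir673, the Meg3 miRNA Mir770 had 81 and 67 reads, or 17.9 and 12.3 CPM. Between Mir370 and the distal cluster the tables hold 1 row, at 0 reads in both replicates.

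Nearly all reads at the 10 genes lay on the gene's own strand. On the opposite strand, 0 of 54080 reads were counted in replicate 1 and 1 of 61259 in replicate 2, a single read at Mir337, whose locus holds Mir3544 on the other strand. These are shares of 0% (exact Clopper-Pearson 95% interval up to 0.00682%) and 0.00163% (up to 0.00909%). Over all miRNA genes the opposite strand held 1.81% and 1.96% of reads. For the 4 genes inside Rtl1 the opposite strand is the sense strand of the Rtl1 mRNA, and 0 reads were counted there in either replicate.

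Summed over genes, the 10 lay below the distal cluster of the same region, which has more genes. The median was 270.7 and 268.3 CPM for the 10 genes, against 88.4 and 77.0 CPM for the distal rows described next. The 10 are named genes and were all detected, while the distal rows were taken by place, detected or not. The 7 other rows between Mir673 and Mir370, with a median of 0.88 and 1.11 CPM, are left out of the 10. These medians therefore do not compare the 2 stretches of the region gene by gene. The distal rows of the plus strand, from Mir379 onward, numbered 34, of which 29 were detected, and the nearest begins 90723 bases beyond Mir370. The 10 genes summed to 11930.5 and 11289.5 CPM against 24029 and 24719 CPM for the distal rows, a log2 ratio of -1.01 and -1.13 in replicates 1 and 2, with a mean of -1.07 ± 0.085 (SD, n = 2). Without Mir127 and Mir411, the most abundant of each side, the mean was -1.85. With distal rows of either strand and reads of either strand it was -1.36, because reads at 4 distal minus-strand rows lay on the opposite strand. The highest distal genes were Mir411, Mir379 at 4323 and 4620 CPM and Mir541 at 3255 and 2722 CPM, and the lowest detected was Mir758 with 11 and 24 reads. Mir127 exceeded Mir411 in replicate 1 and lay below it in replicate 2, so the highest counted gene of the region differed between the 2 libraries. Each pup gave a single library, so pup and library cannot be told apart. Mir411 shares a stretch of 20 bases with another miRNA gene, so its counts can be too low. Whether this changes the order was not tested.

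The 10 genes did not move together between the replicates. Their median log2 ratio of replicate 1 to replicate 2 was -0.06, beside 0.03 over all 375 genes tested, and the single ratios ran from 0.32 for Mir673 to -0.33 for Mir434. A two-sided exact binomial test set each gene's reads in replicate 1 against the share of that library in all reads on miRNA genes, with adjustment after Benjamini and Hochberg over 375 genes. By it 5 of the 10 passed at 0.05, where 42.4% of all genes tested passed. Of the 5, 2 were higher in replicate 1, as were 23.2% of all genes tested, and 3 were higher in replicate 2, as were 19.2%. The count for the 10 genes is near that background. The test measures counting error between these 2 libraries and not the spread among pups.

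Mir127 was higher in replicate 1 at 7316 CPM, against 6159 CPM in replicate 2, a log2 ratio of 0.25 (95% interval 0.23 to 0.27, adjusted p = 9.60e-108 in the exact binomial test). Mir434 was lower in replicate 1 at 1113 CPM, against 1399.7 CPM in replicate 2, a log2 ratio of -0.33 (-0.38 to -0.28, adjusted p = 4.94e-36, exact). Mir431 and Mir337 were also lower in replicate 1, with log2 ratios of -0.11 (adjusted p = 1.06e-07, exact) and -0.15 (7.29e-06). Mir673 was higher in replicate 1 at 0.32 (0.08 to 0.57, adjusted p = 0.0245, exact). These calls are for counting error alone: among 233 genes that averaged 100 reads or more the SD of the log2 ratio was 0.26, and only Mir434 and Mir673 of the 10 lay beyond it.

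Under another scaling 2 of the genes crossed the threshold. With TMM scaling every log2 ratio moved by -0.07, Mir673 no longer passed (0.25, adjusted p = 0.0865) and Mir540 did (-0.21, adjusted p = 0.0278), both in the exact binomial test, and with the size factors of DESeq2 the adjusted p was 0.0648 for Mir673 and 0.0449 for Mir540. Over all genes 54.7% of calls were higher in replicate 1 with library totals, 37.7% with TMM and 41.5% with DESeq2. Mir127, Mir431, Mir434 and Mir337 kept their direction and their call under every scaling and filter tried. Mir493, Mir540, Mir665, Mir433 and Mir370 did not pass with library totals, with log2 ratios of -0.14, -0.14, 0.11, 0.06 and -0.01. For Mir433 the 95% interval ran from -0.03 to 0.15, and its sign turned with TMM, to -0.01.

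**Figure D2:**
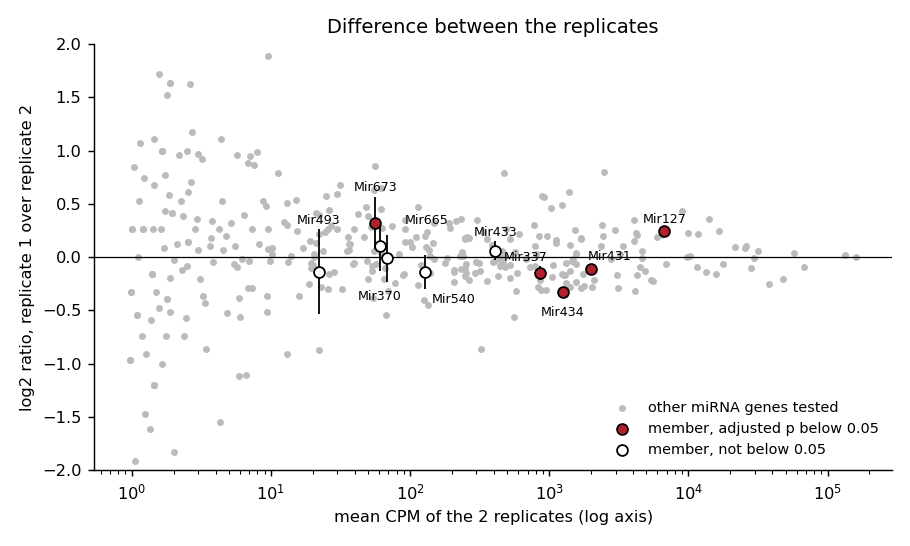
Log2 ratio of replicate 1 over replicate 2 against mean CPM (log axis) for miRNA genes tested, grey points for other genes and large points for the 10 genes, filled where the adjusted p was below 0.05; bars are exact 95% intervals. Mir127 lies above 0 at 0.25 and Mir434 below it at -0.33, within the scatter of genes of similar level; 7 tested genes with no ratio or a ratio beyond the axis are not drawn.

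Ratios between the genes do not depend on the scaling of the libraries. The log2 ratio of Mir127 to Mir434, both inside Rtl1, was 2.72 in replicate 1 and 2.14 in replicate 2, a ratio of 6.57 and 4.40. Mir127 to Mir431 stood at 1.92 and 1.56. Within the 10 genes, the share of Mir434 was 9.33% in replicate 1 and 12.4% in replicate 2, that of Mir431 was 16.2% and 18.5%, and that of Mir337 was 6.84% and 8.02%. The make-up of the 10 differed between the libraries by more than sampling noise, with a chi-square divided by its 9 degrees of freedom of 70.2. Over all genes tested, with 374 degrees of freedom, the same quotient was 75.2. Such a quotient grows with the number of reads per gene, so these values do not compare the spread of the 10 with that of all genes.

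**Figure D3:**
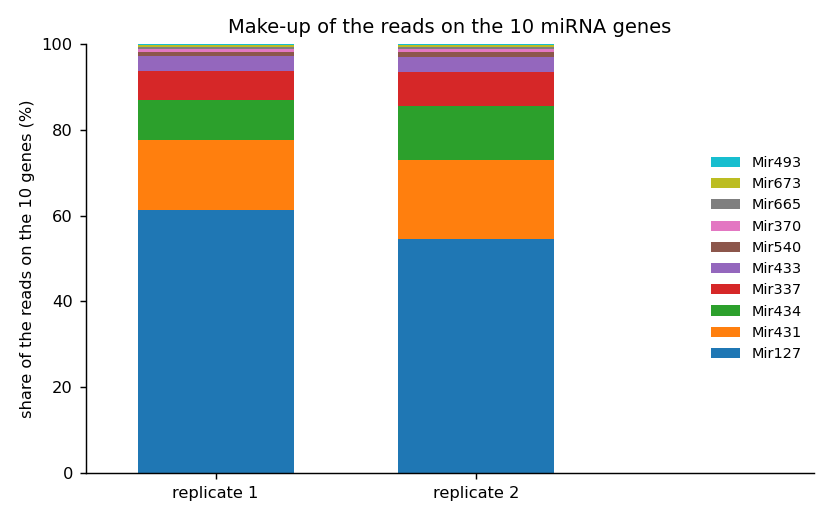
Share of the reads on the 10 genes taken by each gene, in percent, as stacked bars for replicate 1 and replicate 2. The share of Mir127 at the foot is 61.3% in replicate 1 and 54.6% in replicate 2, and Mir434 takes 9.33% and 12.4%.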

How the data were processed

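For each library the authors deposited raw, whole-number counts by miRNA gene, not normalized, on mm10 with GENCODE M4 per the file headers. The sources used here do not give the aligner, the counter, the trimming or the filters. Each table has a column for either strand, for the gene's own strand and for the opposite strand; the columns carry no names, and this reading rests on their values. Library sizes leave out 4 rows without a gene; reads mapped to several places were 34.6% and 36.7% of all reads in replicates 1 and 2. From the counts, CPM, exact Clopper-Pearson intervals and the exact binomial test (scipy 1.17.1) were computed. Of 1973 identifiers, 1894 matched GENCODE M21, on the same assembly. Scaling alternatives used edgeR 4.0.16 and DESeq2 1.42.0. The test was checked on simulated counts that held counting error alone, so the check does not cover spread between pups. Intervals and the floor of 3 reads for a count of 0 cover counting error only. Named are the 10 genes, the other rows between them, leading distal genes, genes next in level to the 3 highest and genes that share a seed. Members and lists were chosen with earlier results of these data known.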

Additional observations from a re-analysis of the deposited data

Results flagged for a closer look

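Reads in a column that the levels do not use were found at 4 minus-strand rows of the distal cluster, above the limit that a count of 0 allows. On their opposite strand, which is the strand of the 10 genes, the mean level was 1539 CPM at Mir299b, 478.5 CPM at Gm25750, 1934 CPM at Gm25252 and 1535 CPM at Gm24321. None of the 10 genes, nor any other row from Meg3 up to the distal cluster, had more than 3 opposite-strand reads in both replicates.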

How the results depend on the processing

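The median level of the 10 genes was 269.5 CPM, and it was 264.4 CPM with reads on either strand, 144.2 per 1000000 of all reads and 321.1 CPM without Mir126a in the denominator. Their sum was 4873 CPM without Mir127 (added after the data were seen). Their log2 ratio to the distal rows was -1.85 without the most abundant gene of each side, -0.59 without genes that share 20 bases in a row with a different gene of the tables, and -1.36 with distal rows of either strand (added after the data were seen). The log2 ratio of Mir433 turned to -0.0097 with TMM. Leaving out either replicate kept the sum within 11289.5 to 11930.5 CPM, the ratio within -1.13 to -1.01 and all 9 neighbouring pairs in order. With at least 100 reads in each library 9 of the 10 genes were detected. The count of the 10 genes that passed between replicates was 5 under every scaling and filter run, and the count over all genes ran from 147 to 165. The binomial test could not be run without a replicate. No paired analysis was possible because all samples form 1 group. Depth limits Mir493, Mir665, Mir673 and Mir370, whose intervals of the replicate ratio are the widest of the 10.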
